A study of Homo sapiens with 19 samples.

Results

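The mRNA levels of 8 genes of the fibroblast growth factor (FGF) family, FGF1, FGF2, FGF5, FGF7, FGF9, FGF11, FGF13 and FGF18, were read in 19 RNA-seq samples. The genes were chosen by name, with earlier results of these data known, and matched by symbol to Ensembl identifiers. All 8 were found among the 44717 gene identifiers listed for any sample. Counts of called members beside the shares of all genes are therefore a description. The samples came from 501Mel, a human melanoma cell line, and Hermes 3A, an immortalised line of human melanocytes. Cells carried lentiviral short hairpin RNAs against BRG1 (shBRG1), the ATPase subunit encoded by SMARCA4 of the SWI/SNF chromatin remodelling complex, or against MITF (shMITF), the transcription factor that governs the melanocyte lineage, or a scrambled hairpin. In 501Mel cells, shBRG1 (n = 3) was paired with the scramble group shSCR1 (n = 3), and shMITF (n = 2) with a separate scramble group, shSCR2 (n = 2). In Hermes 3A cells, shBRG1 (n = 3) and shMITF (n = 3) shared the scramble group shSCR (n = 3), so their comparisons are not independent of each other. Each knockdown rested on 1 hairpin construct, infected cells were selected with puromycin, and both lines were grown in serum, with the phorbol ester TPA, cholera toxin, stem cell factor and endothelin-1 added for Hermes 3A cells. The labels do not say whether replicates came from separate infections, so p-values measure the spread between these samples. That spread differed between groups. Between replicates, chi-square of the counts per degree of freedom, about 1 for counting noise alone, was 2.28 to 8.78 in 501Mel shSCR1. It was 34.8 in 501Mel shSCR2, 45.7 in 501Mel shMITF and 106 to 157 in Hermes 3A shMITF. Adjusted p and shares of called genes depend on this spread too, so their sizes are not compared between knockdowns.

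FGFs bind heparan sulfate and the receptor tyrosine kinases FGFR1 to FGFR4, and the bound receptors signal through the adaptor FRS2 to the RAS-ERK pathway. FGF1 and FGF2, which lack a classical secretion signal, FGF5, a regulator of the hair cycle, FGF7, the keratinocyte growth factor, and FGF9 and FGF18 act outside the cell. FGF11 and FGF13 belong to the FGF homologous factors, which stay inside the cell and bind voltage-gated sodium channels, and they are not receptor ligands in the usual sense. FGF2 is a known mitogen of cultured melanocytes, and autocrine FGF2 has been described in melanoma.

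In GENCODE 29 on GRCh38 the genes lie at chr5:142592178-142698070 on the minus strand (FGF1, ENSG00000113578), chr4:122826708-122898236 on the plus strand (FGF2, ENSG00000138685), chr4:80266599-80336680 on the plus strand (FGF5, ENSG00000138675), chr15:49423096-49488775 on the plus strand (FGF7, ENSG00000140285), chr13:21671383-21704498 on the plus strand (FGF9, ENSG00000102678), chr17:7438273-7444937 on the plus strand (FGF11, ENSG00000161958), chrX:138614731-139222777 on the minus strand (FGF13, ENSG00000129682) and chr5:171419656-171457623 on the plus strand (FGF18, ENSG00000156427). All 8 are annotated as protein-coding.

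RefSeq promoter windows of 300 bases on GRCh38.p14 were held for 7 of the 8 genes, all but FGF9, in 14 entries. They were searched on both strands for CACGTG and CATGTG, the E-box forms that MITF is known to recognise, and for TGANTCA, the AP-1 element. Of all 35116 promoter windows, 7.3% held CACGTG, 11.1% CATGTG and 7.7% TGANTCA. Of the ligands called in a knockdown comparison, the windows shown are those of FGF1 and FGF11 that hold a match and 1 each of FGF5 and FGF7, given 5′ to 3′ on the gene's strand with matched letters in capitals. CACATG is CATGTG read on the other strand, and in FGF11 the CACGTG and TGANTCA matches overlap. The windows are chr5:142697972-142698271 and chr5:142644190-142644489 on the minus strand for FGF1, chr4:80266338-80266637 on the plus strand for FGF5, chr15:49422992-49423291 on the plus strand for FGF7 and chr17:7440518-7440817 on the plus strand for FGF11.
FGF1, upstream start: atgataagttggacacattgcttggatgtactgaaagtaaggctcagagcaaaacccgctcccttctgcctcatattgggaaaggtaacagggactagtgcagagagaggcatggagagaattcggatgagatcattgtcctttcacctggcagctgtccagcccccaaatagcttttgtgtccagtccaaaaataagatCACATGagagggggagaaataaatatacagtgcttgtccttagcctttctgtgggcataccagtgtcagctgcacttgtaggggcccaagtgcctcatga
FGF1, downstream start: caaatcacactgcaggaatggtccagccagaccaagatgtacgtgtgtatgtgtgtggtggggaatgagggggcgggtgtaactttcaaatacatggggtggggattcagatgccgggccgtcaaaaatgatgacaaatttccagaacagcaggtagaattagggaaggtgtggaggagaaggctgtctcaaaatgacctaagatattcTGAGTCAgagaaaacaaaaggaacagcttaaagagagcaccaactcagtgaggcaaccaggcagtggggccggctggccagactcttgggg
FGF5: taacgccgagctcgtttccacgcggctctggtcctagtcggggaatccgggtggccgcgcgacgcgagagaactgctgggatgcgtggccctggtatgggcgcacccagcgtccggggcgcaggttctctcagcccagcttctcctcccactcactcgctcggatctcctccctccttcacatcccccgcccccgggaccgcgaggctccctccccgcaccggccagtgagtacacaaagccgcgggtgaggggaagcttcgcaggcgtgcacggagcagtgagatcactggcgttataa
FGF7: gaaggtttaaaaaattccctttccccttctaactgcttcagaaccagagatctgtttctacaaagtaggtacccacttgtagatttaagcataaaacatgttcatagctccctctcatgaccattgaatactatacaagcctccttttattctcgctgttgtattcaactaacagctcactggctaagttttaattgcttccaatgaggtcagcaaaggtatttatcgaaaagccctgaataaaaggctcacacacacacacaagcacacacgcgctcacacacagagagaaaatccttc
FGF11: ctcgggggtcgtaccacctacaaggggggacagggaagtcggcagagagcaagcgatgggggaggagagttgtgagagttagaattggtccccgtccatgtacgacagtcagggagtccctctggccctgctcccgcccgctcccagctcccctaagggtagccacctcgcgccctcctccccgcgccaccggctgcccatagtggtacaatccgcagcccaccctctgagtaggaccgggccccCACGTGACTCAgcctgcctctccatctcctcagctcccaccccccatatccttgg
Not shown are an FGF1 window at chr5:142698021-142698320, which overlaps the upstream one and also holds 1 CATGTG match, and another FGF5 window at chr4:80268018-80268317 and the other windows of FGF1 and FGF11, which hold none. No match was present in the FGF5 and FGF7 windows or in those of FGF2 and FGF18, and 1 of the FGF13 windows, chrX:138739304-138739603 on the minus strand, held a TGANTCA match. A match is a description of these letters, and its absence says only that they are not in this window.

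Between 29158502 and 78857900 reads were counted on genes per sample. SMARCA4 mRNA fell by 2.36 (SE 0.054) on the log2 scale with shBRG1 in 501Mel cells and fell by 2.38 (SE 0.048) in Hermes 3A cells, and MITF mRNA fell by 1.06 (SE 0.14, adjusted p = 0.00143) with shMITF in 501Mel cells and had a log2 fold change of -0.85 (SE 0.19, adjusted p = 0.0194) in Hermes 3A cells, short of the 2-fold threshold for a call. With shBRG1, MITF mRNA fell by 1.55 in 501Mel cells and had a log2 fold change of -0.43 in Hermes 3A cells, also short of the threshold. All 8 melanocyte markers (MITF, SOX10, TYR, TYRP1, DCT, PMEL, MLANA and PAX3) exceeded 1 CPM in every sample of every group. In what follows, a count is the number of reads on a gene in a sample, CPM is the usual depth-scaled count after TMM normalisation of the 19 samples together, and RPKM is that CPM per kilobase of annotated exon. A gene was called in a comparison when its adjusted p (edgeR's quasi-likelihood test, Benjamini-Hochberg over all genes tested) was under 0.05 and its log2 fold change was over 1 in size, which are the study's thresholds. A gene that did not pass edgeR's filter on low counts in a comparison is described as too low to read there. Groups are said not to overlap when every CPM value of a group lay above every value of the other. The share of all genes for which this held was not counted. In groups of 2 or 3 samples it also held for genes that were not called.

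In scramble cells the FGF genes were expressed at low levels apart from FGF5 in Hermes 3A cells, and the repertoire differed between the lines. In scramble Hermes 3A cells FGF5 stood at 9.77 ± 0.593 RPKM (SD, n = 3) and accounted for 86.7% of the summed RPKM of the 8 genes, followed by FGF2 at 0.843 ± 0.135 RPKM and FGF7 at 0.506 ± 0.0255 RPKM. In 501Mel cells with shSCR1 no member reached 0.2 RPKM: FGF11 (0.173 ± 0.0645), FGF13 (0.172 ± 0.00923) and FGF1 (0.167 ± 0.0626) lay within each other's spread at the top. This rank depends on the annotated exon length, 20681 bases for FGF13 against 5565 for FGF11 and 5275 for FGF1. Before division by length FGF13 led there at 3.56 ± 0.191 CPM, against 0.963 ± 0.359 CPM for FGF11 and 0.883 ± 0.33 CPM for FGF1. The length of the transcripts expressed was not tested, which limits RPKM ranks, shares and sums. In 501Mel cells with shSCR2 FGF13 led at 0.892 ± 0.262 RPKM (n = 2), above FGF2 at 0.301 ± 0.133 RPKM. The summed RPKM of the 8 genes was 10.5 to 12 per sample in scramble Hermes 3A cells, against 0.689 to 1.12 with shSCR1 and 1.23 to 1.89 with shSCR2 in 501Mel cells.

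**Figure D1:**
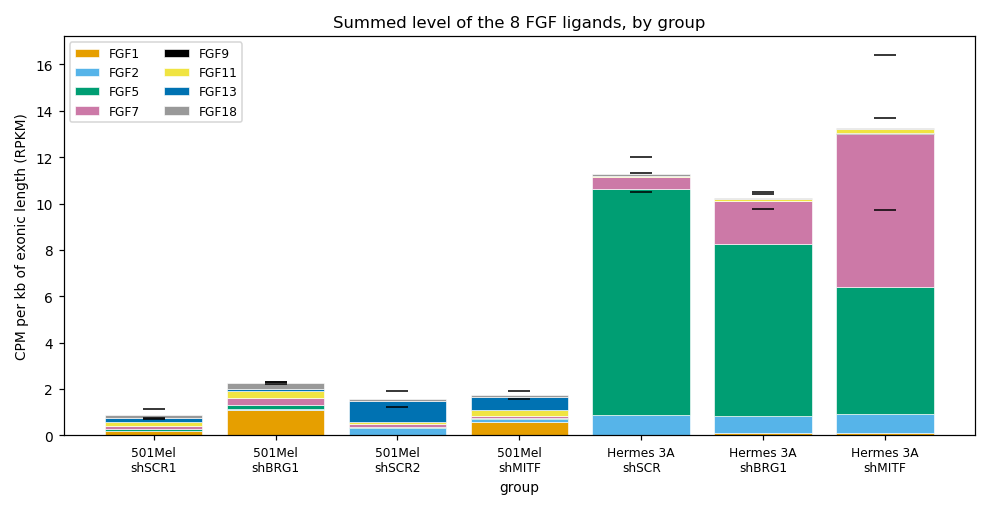
Summed level of the 8 FGF genes in each of the 7 groups, as CPM per kilobase of exon (RPKM). Bars stack the group means of each gene and short lines mark the sum in each sample. FGF5 made up 86.7% of the sum in scramble Hermes 3A cells, 72.8% with shBRG1 and 41.4% with shMITF, where FGF7 made up 49.8%.

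Too few reads kept 4 genes from being tested in 1 or more of the knockdown comparisons. FGF9 had 0 to 3 counts in every sample but 1, a Hermes 3A shMITF replicate with 11, and was too low to read in all comparisons. Of its samples, 8 had 0 counts, which allows a level of up to 0.0485 to 0.0911 CPM per sample before TMM, for counting error only. FGF18 had 1 to 11 counts in every sample outside 501Mel shSCR1 (24, 3 and 7) and shBRG1 (32, 32 and 20), and could be tested in no knockdown comparison but that of shBRG1 in 501Mel cells. FGF13 had 1 to 13 counts in Hermes 3A samples and was too low to read in both Hermes 3A comparisons. FGF1, with 6 to 39 counts in Hermes 3A samples, was too low to read with shMITF in that line. Other members were tested but on few counts in some groups. FGF2 had 4 to 20 counts in 501Mel cells with shSCR1 or shBRG1, and FGF5 had 7 to 16 with shSCR2 or shMITF. FGF11 had 5 to 19 counts in scramble Hermes 3A cells.

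**Figure D2:**
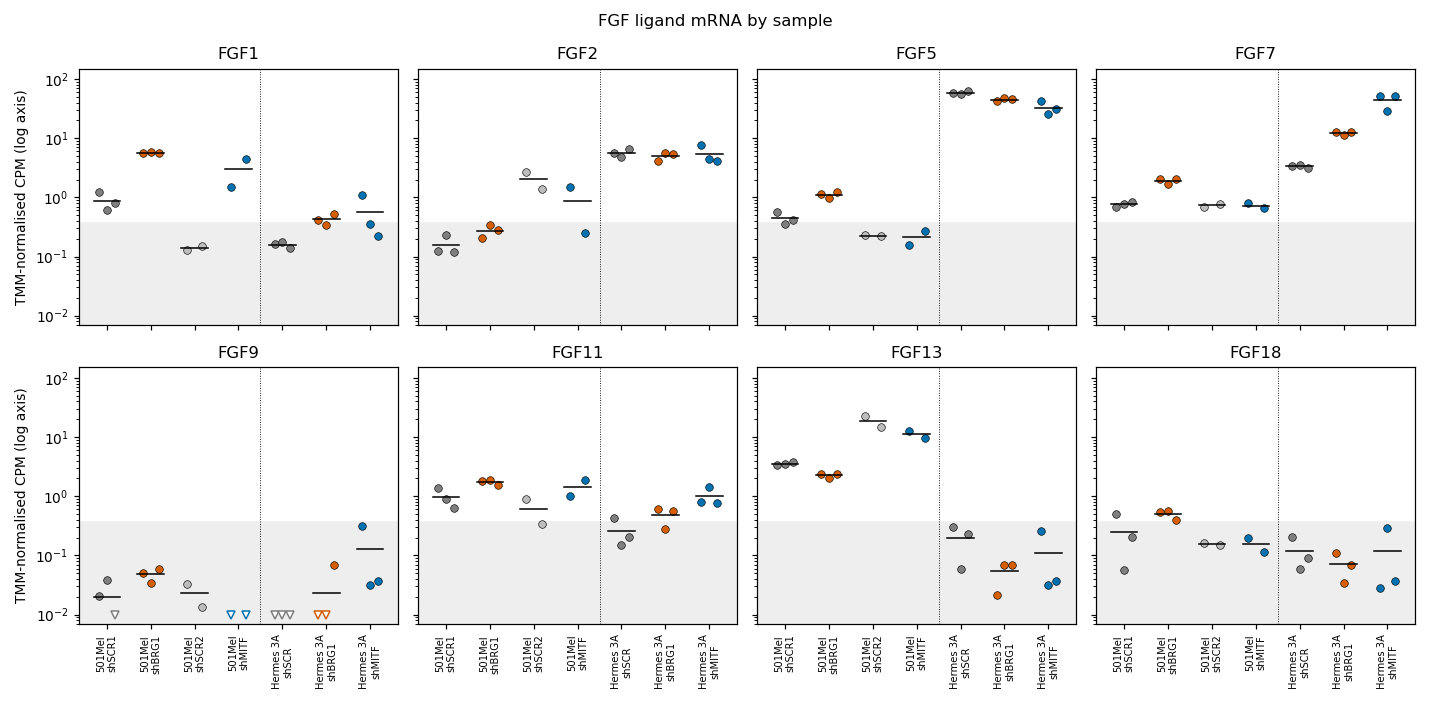
CPM of each FGF gene in each of the 19 samples, on a log axis, with a line at the mean of each group. Circles are samples, open triangles mark samples with 0 counts, the dotted line separates 501Mel (left) from Hermes 3A (right), and the grey band lies under 0.367 CPM, the highest level that 10 reads stand for in any sample. FGF9 and most FGF18 samples lie in the band, as do FGF13 in Hermes 3A cells and FGF2 in 501Mel cells with shSCR1 or shBRG1.

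Several members lie over or near other transcripts. FGF2 shares 804 bases, or 11.9% of its exonic length, with NUDT6 on the opposite strand, which had 4109 counts over the 19 samples. FGF11 shares 4175 bases, or 75% of its exonic length, with AC113189.4 on its own strand. Whether the counting used strand is not given in the sources used here, so reads in these stretches cannot be assigned. FGF7 has copies elsewhere in the genome, and of these FGF7P6 had 80, 53 and 59 counts with shBRG1 in 501Mel cells against 22, 23 and 9 with shSCR1, which is the direction of FGF7 there. In Hermes 3A cells FGF7P6 had 1 to 16 counts in any sample, far fewer than FGF7.

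All 6 members that could be tested between the scramble groups differed between the lines. FGF5 had 2552, 1879 and 2729 counts in scramble Hermes 3A cells and 28, 19 and 14 counts in 501Mel cells with shSCR1, a log2 difference of -7.02 (SE 0.11, adjusted p = 3.1e-25) from Hermes 3A to 501Mel. FGF2 had 248, 164 and 291 counts against 6, 12 and 4 (log2 difference -5.12, SE 0.24, adjusted p = 6.8e-16). FGF7 had 150, 119 and 139 counts against 34, 40 and 28 (-2.15, SE 0.18, adjusted p = 8.0e-11). FGF5, FGF2 and FGF7 were thus lower in the melanoma line, with no overlap between samples. FGF1, which also acts outside the cell, was higher there, and FGF9 and FGF18 were too low to read in this comparison.

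In the other direction, FGF13 had 167, 183 and 129 counts in 501Mel cells with shSCR1 against 13, 2 and 10 in Hermes 3A cells, a log2 difference of 4.09 (SE 0.26, adjusted p = 4.6e-13). FGF1 had 61, 32 and 27 counts against 7, 6 and 6 (2.48, SE 0.40, adjusted p = 3.9e-06), and FGF11 had 66, 47 and 22 counts against 19, 5 and 9 (1.85, SE 0.38, adjusted p = 8.6e-05). The groups did not overlap for these 3 genes either. Of all 18731 genes tested between these groups, 41.4% were called in either direction (23.1% higher and 18.2% lower in 501Mel cells). The lines differed in origin and in medium, and the parts of the 2 cannot be told apart. With shSCR2 in place of shSCR1 the FGF2 difference was -1.56 (adjusted p = 4.5e-04) and that of FGF13 was 6.46 (adjusted p = 1.1e-07), while that of FGF11 was 1.06 and was not called (adjusted p = 0.11).

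The 2 scramble groups of 501Mel cells differed from each other for 4 of the 6 members tested, where 33% of 19056 genes were called (12.3% higher and 20.7% lower with shSCR2). FGF2 had 82 and 103 counts with shSCR2 against 6, 12 and 4 with shSCR1, a log2 difference of 3.61 (SE 0.41, adjusted p = 5.2e-05). FGF13 had 681 and 1072 counts against 167, 183 and 129 (2.38, SE 0.18, adjusted p = 5.9e-06). FGF1, at 4 and 11 counts against 61, 32 and 27, was lower with shSCR2 (-2.59, SE 0.45, adjusted p = 7.3e-04). The groups did not overlap for these genes, and the share of all genes without overlap was not counted. FGF5 was also called lower (log2 difference -1, SE 0.38, adjusted p = 0.0382), but on 7 and 16 counts against 28, 19 and 14, and 4 of the 5 fits without 1 sample lost the call (those without shSCR1 replicate 1 or 3 or either shSCR2 replicate, adjusted p 0.0587 to 0.17), as did DESeq2 (adjusted p = 0.21). FGF11 was called lower without shSCR2 replicate 1 (-1.48, adjusted p = 0.00232). The level of FGF2, FGF13 and FGF1 in 501Mel cells was therefore read against the scramble group of each knockdown, and what set the scramble groups apart was not tested.

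With shBRG1 in 501Mel cells, FGF1, FGF5 and FGF7 rose, 3 of the 7 members tested, and none was called down. Of all 20514 genes tested, 21.7% were called up and 17.4% down. The median log2 fold change was 0.92 over the 7 members and 0.053 over all genes tested. The 0.92 is the value of FGF18, which was not called and whose groups overlapped. A gene can pass the filter on low counts through its higher group alone, so the member median was not read as a shift of the family.

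FGF1 had 327, 343 and 280 counts with shBRG1 and 61, 32 and 27 with shSCR1, or 5.53 to 5.92 CPM against 0.608 to 1.25 CPM. The log2 fold change was 2.61 (SE 0.16, adjusted p = 4.7e-13), or 6.11-fold, and FGF1 then made up 47.3% of the summed RPKM of the 8 genes. Every knockdown sample lay above every scramble sample. FGF7 had 120, 98 and 104 counts against 34, 40 and 28 (log2 fold change 1.28, SE 0.18, adjusted p = 5.3e-07), and FGF5 had 67, 56 and 62 counts against 28, 19 and 14 (1.23, SE 0.23, adjusted p = 3.8e-05). Neither overlapped between groups, and the FGF5 call rests on few counts, under 100 per sample in its higher group.

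FGF11, FGF13 and FGF18 passed the adjusted p but not the fold threshold. FGF11 had 108, 107 and 77 counts with shBRG1 against 66, 47 and 22 (0.75, SE 0.20, adjusted p = 0.00159), and 1.04 without shSCR1 replicate 1. FGF13 had 138, 118 and 120 counts against 167, 183 and 129 (-0.72, SE 0.12, adjusted p = 1.0e-05), and it alone of the members had a negative value, which was -2.12 and called (adjusted p = 0.0428) against both scramble groups pooled. FGF18, at 32, 32 and 20 counts against 24, 3 and 7, overlapped between groups (0.92, SE 0.42, adjusted p = 0.0479), and this rested on single samples. Its value was 2.00 (adjusted p = 3.3e-04) without shSCR1 replicate 1 and 0.35 (adjusted p = 0.363) without shSCR1 replicate 2, the adjusted p was 0.0517 to 0.166 without any 1 of the other 4 samples, and DESeq2 gave 0.90 (adjusted p = 0.165). FGF2 had 12, 20 and 14 counts against 6, 12 and 4 and did not pass the test (0.69, SE 0.39, adjusted p = 0.109), though it did without shSCR1 replicate 2 (1.09, adjusted p = 0.0493), and it was -1.74 against the pooled scrambles (adjusted p = 0.213). When library sizes replaced TMM the median over all genes moved from 0.053 to 0.40 and the calls over all genes from 4453 up and 3571 down to 6192 up and 2398 down, and 6 members were then called up, FGF13 again being the exception at -0.37.

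With shMITF in 501Mel cells FGF1 rose, alone of the 6 members tested, where 5.59% of 17701 genes were called up and 3.4% down. It had 69 and 232 counts with shMITF against 4 and 11 with shSCR2, or 1.52 and 4.49 CPM against 0.131 and 0.15 CPM, and the groups did not overlap. The log2 fold change was 4.43 (SE 0.65, adjusted p = 0.00311), with a wide gap between the 2 knockdown samples, and it was 3.40 to 5.01 when 1 sample was left out, all called. The size depends on the scramble group: against both 501Mel scramble groups pooled it was 2.40 and not called (adjusted p = 0.157).

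The other members did not pass the test with shMITF in 501Mel cells. FGF11 had 45 and 97 counts against 27 and 25 (1.37, SE 0.55, adjusted p = 0.113), and was called without shSCR2 replicate 1 (2.11) or shMITF replicate 1 (1.77). FGF2 had 67 and 13 counts against 82 and 103 (-1.21, SE 0.77, adjusted p = 0.321), and was called down without shMITF replicate 1 (-2.93, adjusted p = 0.00283) and with the replicate number as a block (-1.51, adjusted p = 0.0332). FGF13 had 579 and 499 counts against 681 and 1072 (-0.68, SE 0.25, adjusted p = 0.0831). For FGF11 and FGF13 the groups did not overlap, though neither was called. FGF5 (7 and 14 counts against 7 and 16) and FGF7 (36 and 34 against 21 and 57) had log2 fold changes of -0.0021 (SE 0.57) and 0.016 (SE 0.38), and the groups overlapped. The median log2 fold change was 0.0071 over the 6 members and 0.01 over all genes tested.

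**Figure D3:**
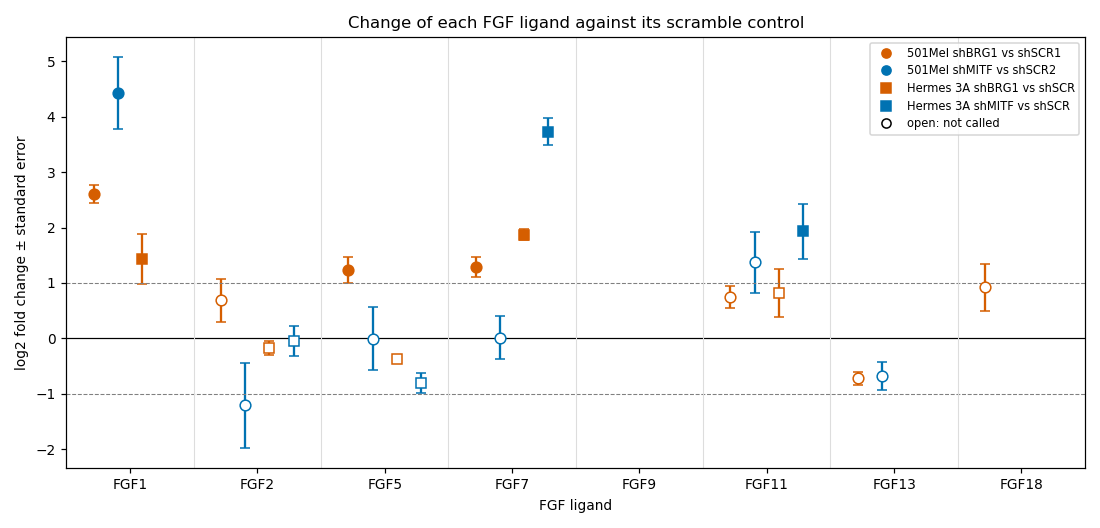
Log2 fold change with its standard error of each FGF gene in the 4 knockdown comparisons. Circles are 501Mel and squares Hermes 3A cells, orange is shBRG1 and blue shMITF, filled symbols are called and open ones are not, and dashed lines mark the fold threshold. FGF7 lies at 3.73 with shMITF in Hermes 3A cells and at 0.016 in 501Mel cells. Genes too low to read have no symbol.

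With shBRG1 in Hermes 3A cells FGF7 and FGF1 rose, 2 of the 5 members tested, where 5.78% of 17222 genes were called up and 3.47% down. FGF7 had 579, 647 and 558 counts with shBRG1 against 150, 119 and 139 with shSCR, or 11.2 to 12.9 CPM against 3.17 to 3.5 CPM (log2 fold change 1.87, SE 0.10, adjusted p = 3.5e-15, or 3.66-fold). The groups lay well apart. FGF1 had 19, 20 and 23 counts against 7, 6 and 6 (1.44, SE 0.45, adjusted p = 0.0081), without overlap but on few counts, and the call was lost without shBRG1 replicate 3 (1.26, adjusted p = 0.0528) and when all Hermes 3A groups were fitted together (1.44, adjusted p = 0.114).

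FGF5, the most abundant member in this line, had 1942, 2704 and 1949 counts with shBRG1 against 2552, 1879 and 2729, or 42.1 to 46.9 CPM against 55.2 to 62.3 CPM. The groups did not overlap after normalisation, and the log2 fold change of -0.38 (SE 0.056, adjusted p = 1.3e-06) was short of the fold threshold. When all Hermes 3A groups were fitted together the same value had an SE of 0.15 and did not pass the test (adjusted p = 0.103). FGF2 had 193, 320 and 232 counts against 248, 164 and 291 (-0.17, SE 0.13, adjusted p = 0.266), and FGF11 had 28, 16 and 24 counts against 19, 5 and 9 (0.82, SE 0.44, adjusted p = 0.117). Neither passed the test, and both overlapped between groups. FGF11 was called without shSCR replicate 1 (1.39, adjusted p = 0.0335) or shBRG1 replicate 2 (1.11, adjusted p = 0.0446). The median log2 fold change was 0.82 over the 5 members, which is the value of FGF11, and 0.009 over all genes tested. It was not read as a shift of the family.

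Of the 4 knockdown comparisons, the largest change of FGF7 came with shMITF in Hermes 3A cells. FGF7 had 1830, 894 and 1406 counts with shMITF against 150, 119 and 139 with shSCR, or 28.4 to 52 CPM against 3.17 to 3.5 CPM. The log2 fold change was 3.73 (SE 0.25, adjusted p = 3.6e-04), or 13.3-fold, and it was 3.58 to 3.97 with 1 sample left out, called each time. Per length FGF7 stood at 6.61 ± 2.03 RPKM and FGF5 at 5.50 ± 1.35 RPKM, within each other's spread, where in scramble cells FGF5 had stood far above FGF7.

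FGF11 rose with shMITF as well, 2 of the 4 members tested being called up and none down, where 3.35% of 16508 genes were called up and 4.04% down. It had 28, 45 and 21 counts against 19, 5 and 9 (1.93, SE 0.50, adjusted p = 0.0342), so the call rests on few counts. The call was lost in 5 of the 6 fits without 1 sample, all but that without shMITF replicate 1 (adjusted p 0.052 to 0.162 in the 5). FGF5 had 1471, 820 and 845 counts against 2552, 1879 and 2729 (-0.80, SE 0.18, adjusted p = 0.0183). Its groups did not overlap and it did not reach the fold threshold, which it passed without shMITF replicate 1 (-1.02, adjusted p = 0.00145). The adjusted p was 0.0661 to 0.0887 without any 1 shSCR replicate, 0.0553 without shMITF replicate 3 and 0.0228 without shMITF replicate 2. FGF2 had 266, 142 and 112 counts against 248, 164 and 291, with overlapping groups (-0.054, SE 0.27, adjusted p = 0.916).

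FGF1, too low to read in this comparison, had 39, 11 and 6 counts with shMITF against 7, 6 and 6, so that 1 knockdown sample held most of its reads. Fitted with all Hermes 3A groups together its value was 1.86 (adjusted p = 0.0404), with no filter on low counts it was 1.85 (adjusted p = 0.0541), and in DESeq2 1.87 (adjusted p = 0.0852). FGF9 had 11, 1 and 1 counts with shMITF and 0 in every scramble sample, and passed the test with no filter on low counts (adjusted p = 0.0419) on the reads of 1 replicate. The median log2 fold change was 0.94 over the 4 members tested and 0.045 over all genes tested. That of the members lies between FGF2 (-0.054) and FGF11 (1.93) and was not read as a shift of the family.

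Across the groups, FGF7 was ordered from Hermes 3A shMITF (44 ± 13.5 CPM) through Hermes 3A shBRG1 (12.2 ± 0.892 CPM) and shSCR (3.37 ± 0.17 CPM) to 501Mel shBRG1 (1.93 ± 0.204 CPM). The remaining 501Mel groups, shSCR1 (0.759 ± 0.0617 CPM), shSCR2 (0.732 ± 0.0638 CPM) and shMITF (0.726 ± 0.0962 CPM), did not differ beyond their spread. FGF1 ran from 501Mel shBRG1 (5.66 ± 0.222 CPM) and shMITF (3.01 ± 2.1 CPM) to 501Mel shSCR1 (0.883 ± 0.33 CPM), and the other 4 groups lay at or under 0.56 CPM. The order of FGF5 was Hermes 3A shSCR (58.6 ± 3.56 CPM), shBRG1 (44.7 ± 2.42 CPM) and shMITF (33 ± 8.08 CPM), then 501Mel shBRG1 (1.11 ± 0.131 CPM), with the other 501Mel groups at 0.213 to 0.448 CPM. FGF13 was ordered from 501Mel shSCR2 (18.4 ± 5.41 CPM) and shMITF (11.2 ± 2.2 CPM) to shSCR1 (3.56 ± 0.191 CPM) and shBRG1 (2.25 ± 0.184 CPM).

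The effect of shBRG1 was tested for a difference between the lines in a single fit of their 4 groups, where 26.9% of 21697 genes were called in either direction. The log2 effect on FGF5 was 1.58 higher in 501Mel than in Hermes 3A cells (SE 0.21, adjusted p = 2.2e-08), the gene having risen in 501Mel cells and having moved by -0.38 in Hermes 3A cells. That on FGF1 was 1.14 higher (SE 0.48, adjusted p = 0.0402), but 8 of the 12 fits without 1 sample lost the call, with differences of 0.89 to 1.21 (those without 501Mel shSCR1 replicate 2 or 3, 501Mel shBRG1 replicate 2, any Hermes 3A shSCR replicate or Hermes 3A shBRG1 replicate 1 or 2). That on FGF7 was lower by a log2 value of -0.62 (SE 0.21, adjusted p = 0.011), short of the fold threshold. FGF2 (0.83), FGF11 (-0.074), FGF13 (1.10) and FGF18 (1.70) did not pass the test, and a call appeared for FGF2 without 501Mel shSCR1 replicate 2 (1.23) or shBRG1 replicate 1 (1.12), for FGF13 without Hermes 3A shSCR replicate 2 (1.44) and for FGF18 without 501Mel shSCR1 replicate 1 (2.76).

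For shMITF, where 2.64% of 19284 genes were called, the difference for FGF7 was -3.73 (SE 0.41, adjusted p = 9.6e-04) and was -3.97 to -3.60 with 1 sample left out. The 501Mel shMITF samples had 36 and 34 FGF7 counts, among their scramble samples, while all 3 Hermes 3A shMITF samples lay above theirs. FGF1 had a difference of 2.54 (SE 1.01, adjusted p = 0.211), which did not pass the test but did without Hermes 3A shMITF replicate 1 (3.51, adjusted p = 0.0335). No other member was called as differing between the lines in its response to shMITF.

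In Hermes 3A cells FGF7 rose while the sum of the melanocyte markers was lower, going from 63522.5 to 64714.4 CPM with shSCR to 26160.7 to 34228.0 CPM with shMITF and 30407.7 to 32046.7 CPM with shBRG1. TYRP1 (29378.9 ± 1077.4 CPM) and PMEL (27710.6 ± 639.9 CPM) made up most of the shSCR sum. With shMITF, MITF, TYR, TYRP1, DCT, PMEL and MLANA averaged lower. PAX3 went from 149.6 ± 3.18 to 233.9 ± 44.9 CPM and SOX10 from 665.8 ± 41.3 to 795.0 ± 437.9 CPM. With shBRG1 all averaged lower but PAX3, at 151.3 ± 2.02 CPM. In 501Mel cells the sum was 29432.6 to 31637.2 CPM with shSCR1 and 3166.6 to 3463.5 CPM with shBRG1, and 20811.2 to 23349.3 CPM with shSCR2 and 11483.5 to 11905.2 CPM with shMITF. All these markers averaged lower with shBRG1 there. With shMITF, TYR went from 605.7 ± 12 to 815.6 ± 176.9 CPM and PAX3 from 68.7 ± 15.2 to 109.3 ± 4.99 CPM. The other markers averaged lower. FGF7 is known from fibroblasts, and the 8 fibroblast markers (COL1A1, COL1A2, COL3A1, DCN, LUM, PDGFRB, THY1 and FAP) summed to 387.3 to 414.9 CPM with shSCR in Hermes 3A cells, 397.5 to 612.7 CPM with shMITF and 416.9 to 425.6 CPM with shBRG1. FAP made up most of that sum, at 321.0 ± 17.9 CPM with shSCR, 357.3 ± 67.5 CPM with shMITF and 271.6 ± 5.55 CPM with shBRG1, and COL1A2 most of the rest, at 67.3 ± 4.09, 141.8 ± 63.6 and 139.0 ± 5.5 CPM. LUM stood at 6.41 ± 0.838, 4.47 ± 5.34 and 3.66 ± 0.231 CPM and THY1 at 4.62 ± 0.314, 7.12 ± 1.99 and 4.95 ± 0.475 CPM in the same order, so the markers did not move together, and the other 4 averaged at most 1.23 CPM in any Hermes 3A group. In 501Mel cells, where FGF1, FGF5 and FGF7 rose with shBRG1, the fibroblast sum was 7.2 to 9.73 CPM with shSCR1 and 18 to 21.2 CPM with shBRG1. Within it COL1A1 went from 1.81 ± 0.387 to 8.76 ± 1.22 CPM, LUM from 1.7 ± 0.35 to 7.17 ± 0.688 CPM and FAP from 3.92 ± 0.574 to 1.41 ± 0.247 CPM. The sum was 10.4 to 11.6 CPM with shSCR2, where COL3A1 was at 0, and 10.8 to 18.7 CPM with shMITF. Of 7 keratinocyte markers 4 were listed. In Hermes 3A cells their sum was 145.4 to 152.8 CPM with shSCR, 177.5 to 255.9 CPM with shMITF and 265.0 to 285.2 CPM with shBRG1. KRT10 and DSP were the members over 1 CPM in every sample. In the same order DSP stood at 114.4 ± 3.52, 164.3 ± 29.6 and 247.3 ± 11.5 CPM and KRT10 at 33.3 ± 1.23, 50.9 ± 11.9 and 28.6 ± 1.15 CPM. TP63 and DSG3 averaged at most 0.648 CPM in these groups. In 501Mel cells the sum of the 4 keratinocyte markers was 31.4 to 42.3 CPM over the 4 groups. The endothelial markers summed to 20.6 to 24.3 CPM with shSCR1 and 1.49 to 1.78 CPM with shBRG1 in 501Mel cells, and the leukocyte markers to 1.38 to 2.03 and 2.93 to 3.66 CPM, 4 of 5 markers being listed in each. Of the leukocyte markers LYZ went from 0.201 ± 0.123 to 2.34 ± 0.161 CPM and CD68 from 1.07 ± 0.175 to 0.23 ± 0.068 CPM. CD14 averaged 0.413 and 0.621 CPM and PTPRC 0 and 0.0247 CPM. TIE1 alone made up most of the endothelial sum with shSCR1, at 19.8 ± 1.48 CPM, against 0.759 ± 0.0592 CPM with shBRG1. With the other scramble group, shSCR2, TIE1 stood at 0.553 ± 0.281 CPM and the endothelial sum at 0.859 to 1.21 CPM. The part of other cells in the FGF results was not tested, and in bulk RNA a change in the number of cells of a type and a change in RNA per cell cannot be told apart.

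Of the other genes of the FGF family, 13 of 14 were found and at most 4 could be tested in a comparison. FGF12, a further homologous factor, fell with shBRG1 in 501Mel cells from 24.4 ± 0.677 to 1.41 ± 0.225 CPM within that fit (log2 fold change -4.12, SE 0.10, adjusted p = 9.3e-21). FGF17 and FGF19 were called up there on few counts, 17.3 and 32.3 per sample on average with shBRG1. FGF14 with shMITF in 501Mel cells (-2.79) and FGF22 with shBRG1 in Hermes 3A cells (-1.1) were called down on few counts, and none of 3 was called with shMITF in Hermes 3A cells.

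Among 7 receptors and co-receptors, FGFR3 rose in Hermes 3A cells with both knockdowns, by a log2 fold change of 1.38 (SE 0.14, adjusted p = 1.1e-09) with shBRG1 and 1.44 (SE 0.22, adjusted p = 0.00461) with shMITF. It was the sole call among the 5 and 4 receptors tested there. FGFR2, whose epithelial isoform is the receptor of FGF7, averaged 2.7 to 3 counts per sample in the Hermes 3A groups and was too low to read. In 501Mel cells FGFR2 averaged 16.7 counts with shSCR1 and 18.3 with shBRG1, 235.5 with shSCR2 and 101 with shMITF, and was called in neither knockdown comparison. FGFRL1, a receptor without a kinase domain, fell with shBRG1 in 501Mel cells (-1.48, SE 0.071, adjusted p = 3.1e-15) and KLB, the co-receptor beta-klotho, rose on few counts, 2 calls of 6 tested. None of the 6 tested was called with shMITF in 501Mel cells. FGFR1 was not called in any of the 4 comparisons (-0.32 and 0.26 in 501Mel cells, 0.28 and 0.07 in Hermes 3A cells, for shBRG1 and shMITF).

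Of 12 carriers and heparan sulfate proteoglycans, which hold FGFs at the cell surface and in the matrix, 2 rose and 3 fell with shBRG1 in 501Mel cells, of 10 tested. The carrier gene FGFBP2 fell by 3.57 (SE 0.097, adjusted p = 7.8e-20) and the syndecan SDC3 fell by 1.04, while SDC2 rose by 1.37. On few counts the glypican GPC3 rose (1.64) and GPC4 fell (-1.55). SDC2 rose by 1.60 (SE 0.38, adjusted p = 0.019) with shMITF too, the sole call of 10 tested. In Hermes 3A cells SDC1 rose by 2.01 (SE 0.079, adjusted p = 2.3e-18) with shBRG1, and FGFBP3, on few counts, rose by 1.44, the 2 calls among 11, and none of 11 was called with shMITF. Of 11 genes that build or trim heparan sulfate, EXT2 fell with shBRG1 in 501Mel cells (-1.39) and HS6ST2 rose on few counts, of 10 tested, and HS3ST1 rose with shMITF in 501Mel cells (1.79, SE 0.25, adjusted p = 0.0019). The sulfatase SULF2 fell with shMITF in Hermes 3A cells (-1.67, SE 0.34, adjusted p = 0.0139), and HS3ST1, on few counts, was the sole call with shBRG1 there.

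Of 10 adaptor genes, PTPN11, which encodes the phosphatase SHP2, fell by 1.92 and PLCG1, a phospholipase, fell by 1.65 with shBRG1 in 501Mel cells, and none was called in the other 3 comparisons. The 16 feedback and target genes of FGF-ERK signalling were all tested in each comparison, and they moved in both directions. With shBRG1 in 501Mel cells FOSL1 (2.26), SPRY2 (1.31) and SPRY4 (1.25) rose and CCND1 (-1.82) and ETV1 (-1.71) fell, the median over the list being -0.46. With shMITF in 501Mel cells SPRY4 (1.70), FOSL1 (1.68) and IL17RD (1.59) rose and CCND1 (-1.17) fell, with a median of 0.58. With shMITF in Hermes 3A cells SPRY1 (1.52, adjusted p = 0.0477) and SPRED1 (1.04) rose and CCND1 (-1.36) fell, with a median of 0.42, and with shBRG1 in that line SPRED3, on few counts, was the sole call (median -0.14). Sprouty and SPRED proteins restrain RAS-ERK signalling, FOSL1 is an AP-1 subunit and CCND1 encodes cyclin D1. These lists were read as counts beside the shares of all genes given above, and nothing is called particular to them.

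**Figure D4:**
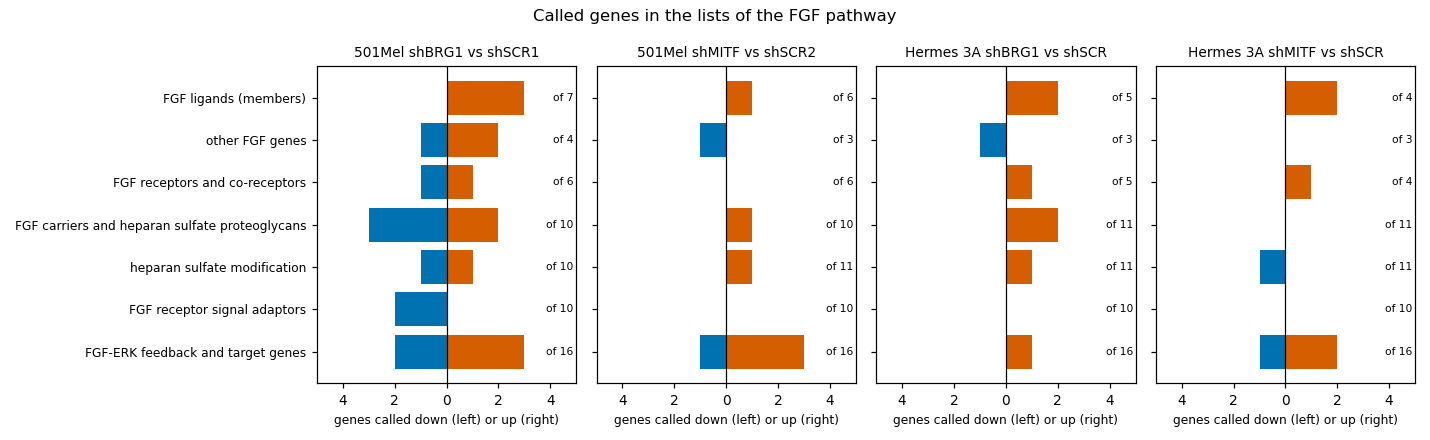
Number of genes called up (orange, to the right) and down (blue, to the left) in the 8 FGF genes and in 6 lists of the FGF pathway, for each of the 4 knockdown comparisons, with the number tested at the right edge. The adaptor list has 2 genes called down with shBRG1 in 501Mel cells and none elsewhere.

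Over the 19 samples, the genes whose log2 CPM followed each member most closely by Pearson's r, among 19591 genes with a symbol, were given as a description, since r across 7 groups of 2 lines largely follows group and line. CCDC68 (r = 0.982), APBB1IP (0.973) and HSPB3 (0.972) followed FGF7, and HHLA3 (0.954), PDGFB (0.948), which encodes a platelet-derived growth factor chain, and LINC02210 (0.942) followed FGF1. BEX4 (0.996), ZNF439 (0.995) and CRYZL2P (0.993) followed FGF5, and UGT8 (0.975), PTPRG (0.973) and TCEAL8 (0.97) followed FGF2. ARL6IP1 (0.98), ADSL (0.979) and HMGN1P38 (0.979) followed FGF13. For FGF11 and FGF18 the closest genes reached 0.894 (TBX2-AS1) and 0.875 (ASS1P2).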

How the data were processed

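Ribosomal RNA was removed from total RNA and a duplex-specific nuclease, which thins the most abundant cDNAs, was applied to the libraries. For each of the 19 samples the authors deposited counts of reads by Ensembl gene, not normalised. The submitters' processing notes name CASAVA 1.8, TopHat 1.4.1, Bowtie 0.12.7 and the build hg19, and the counting program and annotation release are not given in the sources used here. No genome of that build was used: names, lengths and coordinates were matched by identifier in GENCODE 29 (GRCh38).

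Groups and replicate numbers came from the sample labels. Each comparison was fitted on its own groups across all genes listed for both, in edgeR 4.0.16 on R 4.3.3, with TMM, filterByExpr and a robust quasi-likelihood fit, and p-values were adjusted by Benjamini-Hochberg over all genes tested. Standard errors are of log2 fold changes. Differences between lines were contrasts in a single fit. Log2 CPM for likeness used a prior count of 2. The alternatives were DESeq2 1.42.0, library sizes in place of TMM, other filters, controls and samples, a replicate block and leaving out each replicate. The code was tested on simulated data. Tables and figures were made in Python 3.11.15.

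All 8 members are reported in every comparison. From each pathway list, up to 4 genes called in a knockdown comparison with at least 100 counts per sample in the higher group are named, those with the largest log2 fold changes. FGFR1, FGFR2, SPRY4 with shBRG1 in 501Mel cells and the calls on few counts were added after their values were seen. Members and lists were chosen with earlier results of these data known. Depth was 29158502 to 78857900 counts per sample, and intervals for 0 counts cover counting error only.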

Additional observations from a re-analysis of the deposited data

Results flagged for a closer look

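The effect of a knockdown differed between the lines, by the test of the difference itself, for 3 member results. The log2 effect of shBRG1 on FGF5 was 1.58 higher in 501Mel than in Hermes 3A cells (edgeR's quasi-likelihood test, adjusted p = 2.2e-08), on 14 to 67 counts per sample in 501Mel cells and 1879 to 2729 in Hermes 3A cells, and it was called with every single sample left out. The log2 effect of shBRG1 on FGF1 was 1.14 higher in 501Mel cells (adjusted p = 0.0402), on 6 to 23 counts per sample in Hermes 3A cells, and this call was lost in 8 of 12 fits without 1 sample.

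The log2 effect of shMITF on FGF7 was -3.73 in 501Mel relative to Hermes 3A cells (adjusted p = 9.6e-04), and it was called with every single sample left out. The log2 fold change of MITF mRNA itself was -1.06 in 501Mel cells and -0.85 in Hermes 3A cells, a difference of -0.22 (SE 0.26, adjusted p = 0.715). With so few samples this does not show that the knockdowns were equal. The lines also differed in medium and scramble group, and the cause of the FGF7 difference was not tested. Groups of 2 or 3 samples are too small for a test of single outlying samples.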

How the results depend on the processing

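Of 644 alternative values of single members, 554 kept their direction and side of the threshold, 33 turned sign, 33 passed the threshold anew and 24 lost it, and of 166 alternative counts of called members 129 stayed within 1.5 times the reported count and 37 did not. The FGF7 calls with shBRG1 in both lines and with shMITF in Hermes 3A cells, the FGF1 and FGF5 calls with shBRG1 in 501Mel cells and the differences between lines in the FGF5 response to shBRG1 and the FGF7 response to shMITF were kept under every alternative that could be fitted. The cause of the changes that follow was not tested unless the setting itself gives it. Members called up with shBRG1 in 501Mel cells numbered 5 with no fold threshold, 6 when scaled by library size and 3 to 5 without 1 replicate, and 1 (FGF13) was called down with no fold threshold and with both scramble groups pooled. With shMITF in 501Mel cells 2 were called up with no filter on low counts and in a fit of the line's groups together, 0 when every sample had to hold 10 counts (which drops FGF1) or with pooled scrambles, and 1 to 2 without 1 replicate. There, 1 (FGF2) was called down with no filter, 1 with the replicate block and 0 to 1 without 1 replicate. Leaving out a replicate there leaves 1 sample in a group, which is assumed to vary like the other. In Hermes 3A cells with shBRG1, 1 was called up under the filter of 10 counts and in the joint fit of the line, and 1 to 3 without 1 replicate, and 1 (FGF5) was called down with no fold threshold. With shMITF there, 1 was called up under that filter and 1 to 2 without 1 replicate, and 1 (FGF5) was called down with no fold threshold and 0 to 1 without 1 replicate. Where edgeR called no member down, 1 member in each of the 4 comparisons was negative at an unadjusted p under 0.05 (FGF13 in 501Mel cells, FGF5 in Hermes 3A cells), and DESeq2 called 0. Members called as differing between lines with shBRG1 numbered 4 with library sizes, 1 under the filter of 10 counts and 1 to 3 without 1 replicate, and with shMITF 1 to 2 without 1 replicate. Under the filter of 10 counts, 2 were called between the lines and 1 between the scrambles, since fewer members could then be tested.

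Values that turned sign were small or rested on the control. FGF2 with shBRG1 in 501Mel cells was -1.74 (adjusted p = 0.213) against pooled scrambles, and FGF13 with shMITF was 0.26 against them. With shMITF in 501Mel cells FGF5 was 0.095 with library sizes, 0.026 with the replicate block and -0.07 to 0.34 without 1 replicate, and FGF7 was -0.0058 in DESeq2, -0.016 in the joint fit, -0.018 with pooled scrambles and -0.11 to 0.11 without 1 replicate. FGF2 with shMITF in Hermes 3A cells was 0.028 with library sizes and -0.39 to 0.11 without 1 replicate. Of the differences between lines, FGF11 with shBRG1 was 0.20 with library sizes and -0.68 to 0.24 without 1 replicate, and with shMITF FGF11 was -1.19 to 0.18 and FGF13 -0.35 to 1.76 without 1 replicate. Between the scrambles FGF7 was 0.022 in DESeq2, 0.022 with the block and -0.11 to 0.087 without 1 replicate.

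Same-numbered replicates did not deviate together (r of -0.0277 to 0.0367 with 3 pairs, 0.095 in 501Mel cells with shMITF), so the numbers were not taken to pair samples. The block brought 1 call up with shBRG1 in 501Mel cells (FGF18, 1.01), 1 down with shMITF (FGF2, -1.51) and took 1 away between the scrambles (FGF5, -0.97), and changed no other call. Over all genes, scaling by library size moved the calls up and down to 1187 and 459 (from 990 and 602) with shMITF in 501Mel cells, 1231 and 467 (from 996 and 598) with shBRG1 and 686 and 540 (from 553 and 667) with shMITF in Hermes 3A cells, 3696 and 2281 (from 2610 and 3224) for the difference with shBRG1 and 5310 and 2730 (from 4333 and 3414) between the lines, with medians of 0.11, 0.11, 0.14, 0.25 and 0.30. The filter of 10 counts left 2567 and 2616 with shBRG1 in 501Mel cells, 634 and 422 in Hermes 3A cells, 1709 and 1851 for their difference, 2284 and 2122 between the lines and 1212 and 2346 between the scrambles. With shMITF in 501Mel cells there were 327 and 248 against pooled scrambles, 1596 and 922 in a fit of all its groups and 543 and 413 without shMITF replicate 2. With shMITF in Hermes 3A cells leaving out shSCR replicate 3 gave the fewest, 236 and 354. The difference with shMITF, 385 and 124, was 625 and 297 in DESeq2 and ran from 129 and 23 (without 501Mel shMITF replicate 2) to 561 and 242 (without Hermes 3A shMITF replicate 1). Depth kept FGF9, FGF18 and, in Hermes 3A cells, FGF1 and FGF13 from being tested in 1 or more knockdown comparisons. It also limits FGF2 and FGF5 in 501Mel cells and FGF11 in Hermes 3A cells, which were tested on few counts.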
